A study of Mus musculus with 8 samples.

Results

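The genes described here carry the breakdown of glucose and the oxidation of pyruvate: glucose and lactate transport, glycolysis, the pentose phosphate pathway, pyruvate entry into mitochondria and the citric acid cycle. They were taken as a list of 48 gene symbols, and array probes were assigned to them by joining each probe's RefSeq accession to the RefSeq gene table. All 48 had at least 1 probe, out of 20660 genes with a named probe, and 47 of them were bright enough to be tested, out of 14601 genes. The samples were mouse embryos of embryonic day 3.0 at the morula stage, when blastomeres compact, made by in vitro fertilisation and cultured in KSOM medium. Zygotes had received either control siRNA (siControl, 3 arrays) or siRNA against P150 (P150KD, 5 arrays), the product of Chaf1a and the largest part of the replication-coupled histone chaperone CAF-1. RNA of 10 pooled embryos was amplified in 2 rounds for each single-colour Agilent array, strain and maternal age are not given in the sources used here, and siRNA lowers rather than removes its target.

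Glycolysis splits glucose into pyruvate in the cytosol, and lactate dehydrogenase can turn that pyruvate into lactate. The pentose phosphate branch takes glucose 6-phosphate aside to make NADPH and ribose for nucleotides. Mitochondria import pyruvate, convert it to acetyl-CoA with the pyruvate dehydrogenase complex and oxidise it in the citric acid cycle. Early cleavage embryos of the mouse live mainly on pyruvate and lactate, and uptake and use of glucose increase around compaction and blastocyst formation.

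Signals are given as log2 of the processed signal minus that array's 75th percentile, so each level is relative and total RNA per embryo was not measured. Chaf1a itself stood at 2.25 ± 0.16 (SD, n = 3) in siControl and -0.62 ± 0.85 (SD, n = 5) in P150KD (log2 fold change -2.88, SE 0.48, limma adjusted p = 0.0107), with no overlap of the groups. Between 50.1% and 55.9% of spots were well above background on an array, and no spot was saturated. The labels do not say whether the arrays hold separate embryo collections, so p-values measure the spread between these arrays, which may be technical. All arrays lay on 1 slide, whose first column held the 3 siControl arrays and P150KD replicate 1, and the second column P150KD replicates 2 to 5. All 12 morula and early blastocyst markers were tested, and 2 fell (16.7%, beside 10.5% of all tested genes). These were Krt18 and Gata3, lower by 3.09 and 1.75 on the log2 scale (limma adjusted p = 0.00296 and 0.0456). Krt8 (-2.10) and Cdx2 (-1.31) did not pass, and neither did the remaining markers, from -0.62 for Nanog to 0.20 for Esrrb. The log2 summed signal of the 12 ran from 9.34 to 9.45 in siControl and 8.75 to 9.02 in P150KD. The part of these markers in the values below was not tested.

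In the knockdown morulae both glucose transporters, Hk2, Gpi1, Aldoa, Pgk1, Pkm and the 2 NADPH-making enzymes of the pentose phosphate branch had lower transcript signals, while Pfkfb3, Ldha and Idh1 had higher ones. Of the 47 tested members, 17 fell and 3 rose at a limma adjusted p under 0.05, a share of 36.2% fallen and 6.38% risen; in bulk RNA of whole embryos, fewer cells of a type and less RNA per cell cannot be told apart. Over all 14601 tested genes 17.1% passed (13.9% of 30348 probes): 10.5% fell and 6.65% rose, so the share of members that rose lay near the background and the share that fell lay above it. The members were chosen with earlier results of these data known, so these shares describe the list and are no test of it. The split depended on the scaling of the arrays: 12 fell and 5 rose with quantile normalization, 11 fell and 2 rose on the array median, and 5 fell and 5 rose relative to housekeeping genes. Group and slide column nearly coincide, and with the column as a block 3 members fell and 2 rose: G6pdx, Pgd, Fh1, Pfkfb3 and Ldha kept their call, and the other 15 of the 20 lost it. That block sets P150KD replicate 1 alone against the controls, and this array was the lowest for G6pdx (0.34, other P150KD arrays 0.98 to 1.47) and Fh1 (3.75, others 4.27 to 4.42). The median log2 fold change of the members was -0.41, beside -0.24 over all tested genes and -0.29 over the 11284 genes well above background on all 8 arrays. Among those 11284 genes, 12.9% fell and 6.04% rose. By role, 2 of 4 transporters fell, 7 of 17 glycolysis genes fell and 2 rose, 2 of 4 pentose phosphate genes fell, 0 of 8 tested pyruvate entry genes passed, and 6 of 14 citric acid cycle genes fell and 1 rose. The medians of these groups were -0.47, -0.69, -0.77, -0.29 and -0.59 in that order, and that of glycolysis was -0.33 without P150KD replicate 2 and -0.41 without P150KD replicate 5. In 22 members every P150KD array read below every siControl array (46.8% of the members, 21.8% of all tested genes), and in 6 members every P150KD array read above (12.8%, and 10.2% of all tested genes). On single P150KD arrays the median member lay between 0.35 and 0.60 below the siControl mean, and between 30 and 36 of the 47 members were below it. The median of all tested genes on those arrays lay between 0.14 and 0.28 below.

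**Figure D1:**
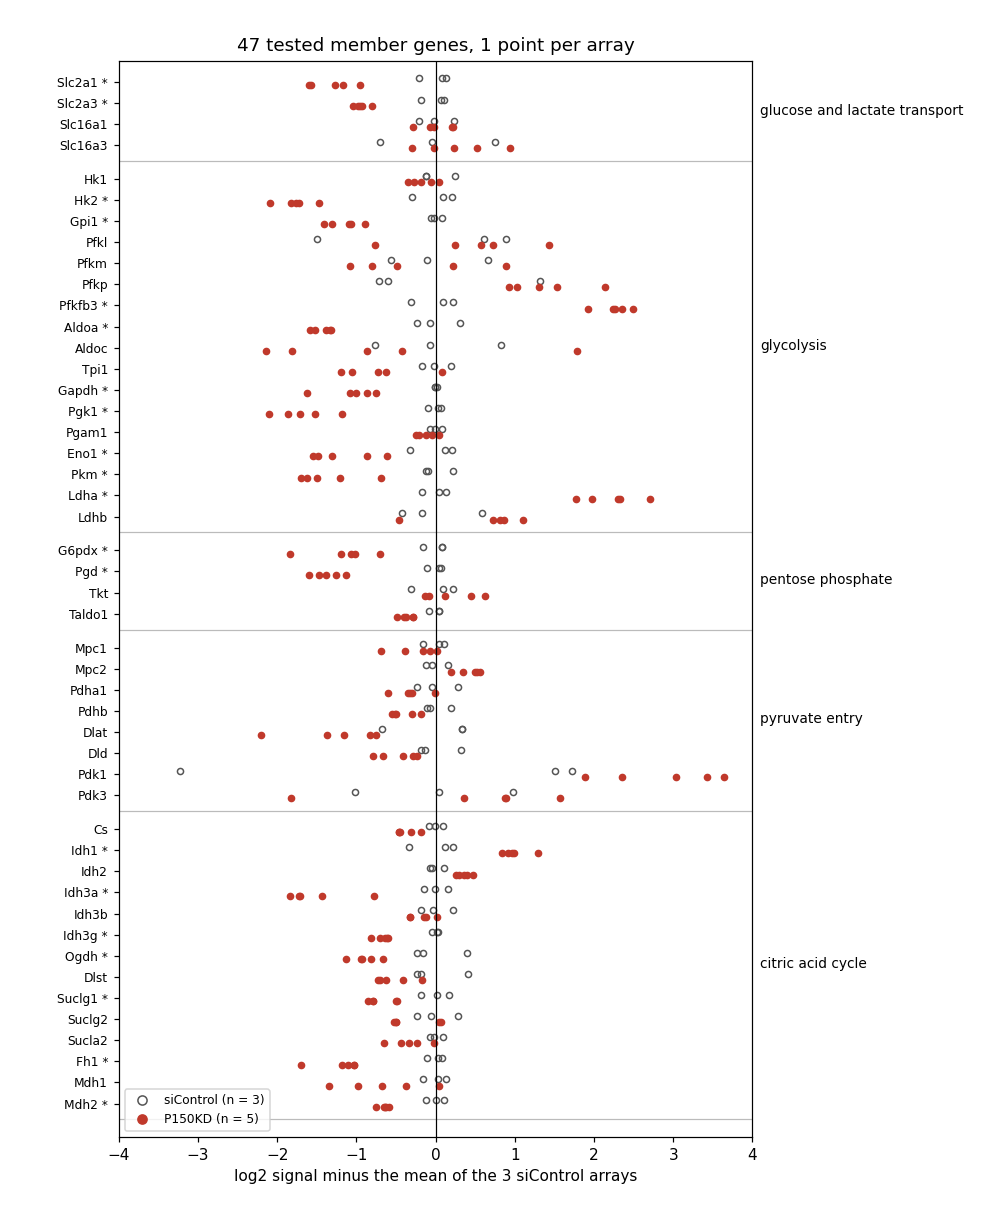
Log2 signal of each of the 47 tested members on every array, minus the mean of the 3 siControl arrays; open grey points are siControl (n = 3), red points P150KD (n = 5), genes are ordered by role and an asterisk marks a limma adjusted p under 0.05. The red points of Slc2a1, Hk2, Aldoa, Pgk1 and Pgd lie left of all grey points, and those of Pfkfb3, Ldha and Idh1 right of them.

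Glucose enters embryonic cells through the facilitative transporters encoded by Slc2a1 (GLUT1) and Slc2a3 (GLUT3), and both were lower in P150KD. Slc2a1 read 4.95, 4.66 and 5.00 on the 3 siControl arrays and 3.29, 3.70, 3.60, 3.27 and 3.91 on the 5 P150KD arrays. Slc2a1 was thus 2.48-fold lower (log2 fold change -1.31, SE 0.21, limma adjusted p = 0.00979). Every P150KD array lay below the lowest control. For Slc2a3 the controls read 6.64, 6.89 and 6.93 and the knockdown arrays 5.89, 5.87, 5.78, 6.02 and 5.83, 1.92-fold lower (log2 fold change -0.94, SE 0.16, limma adjusted p = 0.0108). Its 5 knockdown values lay between 5.78 and 6.02, all under the controls. The monocarboxylate transporters Slc16a1 (MCT1) and Slc16a3 (MCT4), which carry lactate and pyruvate across the plasma membrane, did not pass the test. Slc16a1 had a log2 fold change of 0.01 (SE 0.20, adjusted p = 0.983) and Slc16a3 one of 0.27 (SE 0.40, adjusted p = 0.679), and the groups overlapped for both. Scaled to the housekeeping list, neither glucose transporter passed: Slc2a1 had a difference of -0.93 with an adjusted p of 0.0524, and Slc2a3 one of -0.55 with an adjusted p of 0.0838. With slide column blocked neither passed either, Slc2a1 at -1.58 (adjusted p = 0.0728) and Slc2a3 at -0.92 (adjusted p = 0.141).

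Hexokinase traps glucose in the cell as glucose 6-phosphate, and of its 2 member genes only Hk2 passed. Hk2, the inducible hexokinase that binds mitochondria, read 6.71, 6.83 and 6.32 in siControl and 4.80, 5.15, 4.90, 4.86 and 4.53 in P150KD. It had the largest fall of the members, 3.43-fold (log2 fold change -1.78, SE 0.21, limma adjusted p = 0.00381), and the groups lay more than 1 log2 unit apart. Hk1, the constitutive hexokinase, read 5.54, 5.19 and 5.18 in siControl and 4.95, 5.03, 5.25, 5.13 and 5.35 in P150KD and did not pass (log2 fold change -0.16, SE 0.18, limma adjusted p = 0.577). Its values overlapped between the groups. Gpi1, which isomerises glucose 6-phosphate to fructose 6-phosphate, read 5.21, 5.25 and 5.35 and then 3.96, 4.20, 3.86, 4.17 and 4.38 (2.23-fold lower, log2 fold change -1.16, SE 0.18, limma adjusted p = 0.00831), with no overlap.

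Phosphofructokinase makes the committed step of glycolysis, and none of its genes passed by the brightest probe. Pfkl, the liver-type subunit, read -2.29, -2.00 and -4.40 in siControl and -2.17, -3.66, -2.32, -2.65 and -1.46 in P150KD, a difference of 0.45 (SE 0.67, adjusted p = 0.688) with overlapping groups. Pfkm, the muscle-type subunit, differed by -0.25 (SE 0.50, adjusted p = 0.768). The platelet-type subunit Pfkp read -3.10, -2.99 and -1.06 in siControl and -1.46, -1.08, -0.85, -0.24 and -1.35 in P150KD (log2 fold change 1.39, SE 0.52, limma adjusted p = 0.12), so siControl replicate 3 lay among the knockdown arrays. Without that array Pfkp passed as risen, and its other probe went down, as given with the probe comparison. The regulator Pfkfb3, whose enzyme makes the fructose 2,6-bisphosphate that activates phosphofructokinase, rose. It read 3.01, 3.54 and 3.41 on the siControl arrays and 5.82, 5.56, 5.67, 5.59 and 5.24 on the P150KD arrays, 4.77-fold higher (log2 fold change 2.26, SE 0.21, limma adjusted p = 0.0019). All 5 knockdown values lay above the highest control.

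Further down the pathway, aldolase splits the sugar bisphosphate into triose phosphates. Aldoa, the main aldolase of most tissues, read 6.35, 6.18 and 6.73 in siControl and 4.90, 5.04, 4.84, 5.09 and 5.09 in P150KD (2.69-fold lower, log2 fold change -1.43, SE 0.18, limma adjusted p = 0.00488). Its 5 knockdown arrays differed among themselves by less than the controls did, and all lay lower. Aldoc, the brain-type aldolase, differed by -0.69 (SE 0.89, adjusted p = 0.636), and its P150KD arrays ran from -2.97 to 0.95. Tpi1, which interconverts the triose phosphates, differed by -0.70 (SE 0.31, adjusted p = 0.168). Gapdh, which oxidises glyceraldehyde 3-phosphate and is often used as a reference gene, read 7.37, 7.37 and 7.39 in siControl and 6.38, 6.63, 6.51, 5.75 and 6.30 in P150KD (2.09-fold lower, log2 fold change -1.06, SE 0.23, limma adjusted p = 0.0229). Its controls were within 0.02 of each other, and P150KD replicate 4 was the lowest of all. Leaving out siControl replicate 1, 2 or 3 ended the call of Gapdh, with adjusted p up to 0.0791.

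Both glycolysis members that encode ATP-yielding enzymes, Pgk1 and Pkm, fell. Pgk1, the X-linked phosphoglycerate kinase, read 4.72, 4.85 and 4.88 in siControl and 3.29, 3.10, 3.63, 2.71 and 2.95 in P150KD (3.2-fold lower, log2 fold change -1.68, SE 0.23, limma adjusted p = 0.00608), with the groups well apart. Pgam1, phosphoglycerate mutase, differed by -0.12 (SE 0.15, adjusted p = 0.636) and did not pass. Eno1, enolase, read 4.94, 4.85 and 4.40 in siControl and 3.18, 3.25, 3.42, 3.87 and 4.11 in P150KD (2.24-fold lower, log2 fold change -1.16, SE 0.28, limma adjusted p = 0.0331). Its call was lost when any of the siControl arrays or P150KD replicate 1, 2 or 3 was left out, with log2 fold changes from -1.33 to -1.06. Pkm, which encodes both splice forms of muscle-type pyruvate kinase, read 3.08, 3.10 and 3.41 in siControl and 1.57, 1.70, 1.50, 1.99 and 2.50 in P150KD (2.53-fold lower, log2 fold change -1.34, SE 0.27, limma adjusted p = 0.0185). P150KD replicate 5 was nearest to the controls without reaching them, and the call of Pkm was lost without siControl replicate 1, 2 or 3 (adjusted p up to 0.0653).

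Of the 2 lactate dehydrogenase genes, which act on the end product of glycolysis, Ldha rose. Ldha, the subunit of the muscle-type enzyme that favours lactate formation, read 4.04, 3.73 and 3.94 in siControl and 6.20, 6.60, 5.88, 6.23 and 5.68 in P150KD. This was a 4.65-fold rise (log2 fold change 2.22, SE 0.24, limma adjusted p = 0.00306), and each knockdown array exceeded each control by more than 1 log2 unit. Ldhb, the heart-type subunit, read 1.01, 1.26 and 2.01 in siControl and 2.29, 2.53, 0.97, 2.24 and 2.15 in P150KD and did not pass (log2 fold change 0.61, SE 0.41, limma adjusted p = 0.35). Replicate 3 was the lowest Ldhb array of P150KD and lay under the lowest control, while the other 4 lay above all controls. Scaled to the housekeeping list, Pfkfb3 and Ldha remained higher (2.64 and 2.60), and Hk2, Aldoa and Pgk1 remained lower (-1.39, -1.04 and -1.29, limma adjusted p from 6.96e-04 to 0.0157), while Gpi1, Gapdh, Eno1 and Pkm no longer passed. With slide column blocked Pfkfb3 and Ldha kept their call, and the 7 glycolysis genes that fell had log2 fold changes from -1.83 to -1.001 with adjusted p from 0.0572 to 0.242.

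**Figure D2:**
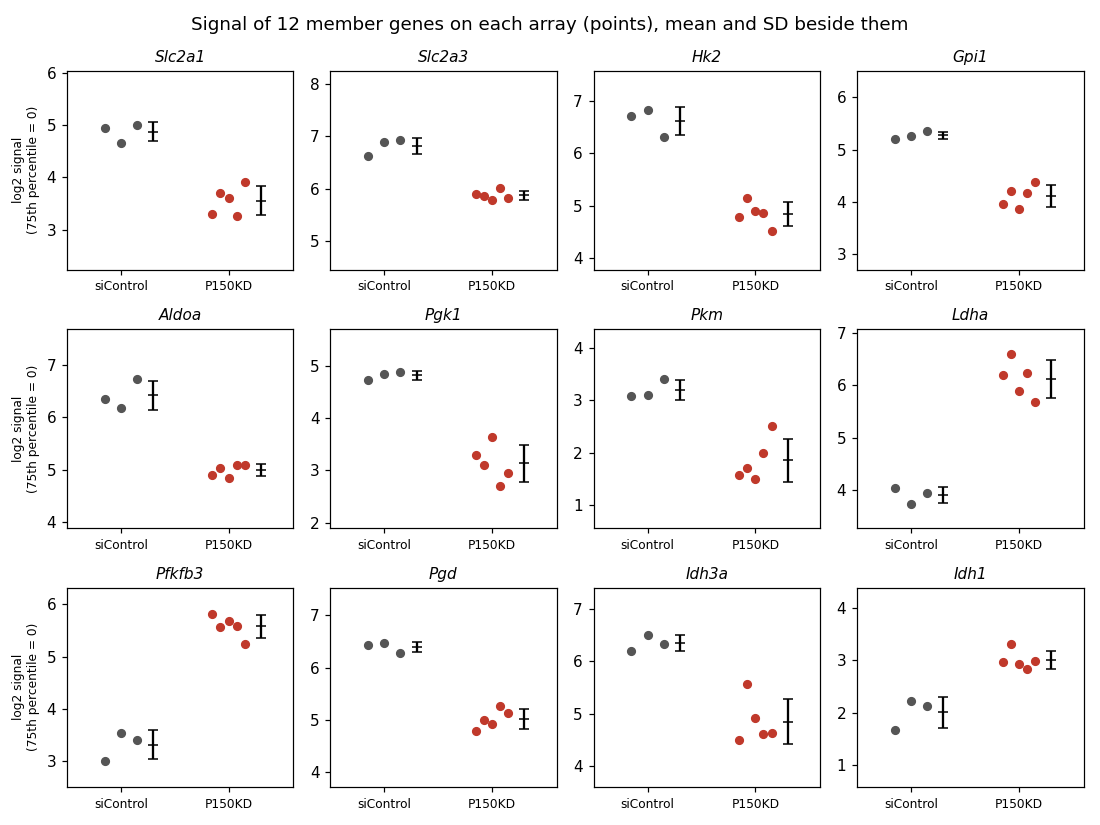
Log2 signal minus each array's 75th percentile for 12 members; each point is 1 array, the bar beside each group is the mean ± SD (siControl n = 3, P150KD n = 5), and every panel spans the same height in log2 units. Ldha, Pfkfb3 and Idh1 are higher in P150KD and the other 9 lower, with no overlap between groups in any of the 12 panels.

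Slc2a1, Hk2, Pgk1, Ldha and Pfkfb3 are textbook targets of the hypoxia-inducible factors, whose binding sites often contain ACGTG. Of these genes 3 fell here and 2 rose, and their promoters are shown side by side. They are examples and not a full list of such targets among the members, so their split describes the choice. Of all 47 tested members 17 fell and 3 rose. Each sequence is the 250 bases before the gene's RefSeq start (GRCm38.p6, 5′ to 3′ on the gene's strand), and Ldha and Pfkfb3, which have 2 listed starts each, are shown at the more upstream one. The windows are chr4:119108495-119108744, plus strand, for Slc2a1; chr6:82774455-82774704, minus strand, for Hk2; chrX:106186850-106187099, plus strand, for Pgk1; chr7:46845554-46845803, plus strand, for Ldha; and chr2:11553930-11554179, minus strand, for Pfkfb3. Capitals mark ACGTG and the GC box GGGCGG on either strand; the E-box CACGTG contains ACGTG and is marked with it.
Slc2a1: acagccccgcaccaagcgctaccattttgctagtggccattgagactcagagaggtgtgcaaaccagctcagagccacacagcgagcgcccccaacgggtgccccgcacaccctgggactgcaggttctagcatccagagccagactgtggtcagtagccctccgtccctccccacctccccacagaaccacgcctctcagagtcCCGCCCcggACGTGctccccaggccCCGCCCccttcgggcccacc
Hk2: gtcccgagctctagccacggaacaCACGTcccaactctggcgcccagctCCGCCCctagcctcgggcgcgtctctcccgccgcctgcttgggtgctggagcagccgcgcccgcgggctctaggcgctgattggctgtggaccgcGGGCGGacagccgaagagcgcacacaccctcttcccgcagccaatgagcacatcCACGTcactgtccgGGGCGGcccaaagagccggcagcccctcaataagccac
Pgk1: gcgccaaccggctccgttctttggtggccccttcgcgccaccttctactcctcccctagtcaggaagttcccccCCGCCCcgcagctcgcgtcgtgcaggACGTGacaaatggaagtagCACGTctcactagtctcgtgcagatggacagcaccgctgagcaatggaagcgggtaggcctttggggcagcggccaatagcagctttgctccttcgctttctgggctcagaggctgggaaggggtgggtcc
Ldha: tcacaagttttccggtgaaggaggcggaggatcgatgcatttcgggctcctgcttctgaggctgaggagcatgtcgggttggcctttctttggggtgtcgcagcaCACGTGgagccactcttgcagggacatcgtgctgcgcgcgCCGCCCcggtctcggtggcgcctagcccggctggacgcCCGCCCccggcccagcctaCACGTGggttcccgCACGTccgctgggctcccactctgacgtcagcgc
Pfkfb3: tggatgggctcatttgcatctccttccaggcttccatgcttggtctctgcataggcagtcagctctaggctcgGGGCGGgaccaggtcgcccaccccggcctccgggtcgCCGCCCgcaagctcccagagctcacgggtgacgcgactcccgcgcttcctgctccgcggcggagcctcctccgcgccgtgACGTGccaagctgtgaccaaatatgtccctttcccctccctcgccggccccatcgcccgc

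ACGTG occurred at 1 site in the Slc2a1 window, 2 in Hk2, 2 in Pgk1, 3 in Ldha, of which 2 were CACGTG, and 1 in Pfkfb3, so it was present in promoters of genes that fell and of genes that rose. Of the 48 members 46 had a window in the RefSeq table, and 17 of 46 held ACGTG in at least 1 of their windows (37%), beside 23.5% of the 11655 tested genes with a window and 18.5% of all 27025 genes with one. It was found in 7 of 15 members that fell and 2 of 3 that rose. CACGTG stood in 6 of 46 members (13%, tested genes 9.38%, all genes 6.86%) and GGGCGG in 34 of 46 (73.9%, tested genes 58%, all genes 35.4%). CACGTG was found in 1 of 15 members that fell and 2 of 3 that rose, Ldha and Pfkfb3. For Pfkfb3 it lay in the window of the other listed start, which is not shown. Genes with several listed starts had several windows and so more chances of a match. A match of letters is a description of the window and was not tested as a site.

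The oxidative branch of the pentose phosphate pathway makes NADPH through the enzymes of G6pdx and Pgd, and both genes fell. G6pdx, the X-linked glucose 6-phosphate dehydrogenase that opens the branch, read 2.01, 2.25 and 2.26 in siControl and 0.34, 1.47, 0.98, 1.15 and 1.10 in P150KD (2.24-fold lower, log2 fold change -1.17, SE 0.27, limma adjusted p = 0.0283). P150KD replicate 1 was the lowest, and all 5 lay below the controls. The call of G6pdx was lost without any 1 of the siControl arrays or P150KD replicate 3, 4 or 5 (adjusted p up to 0.0888). Pgd, 6-phosphogluconate dehydrogenase, read 6.43, 6.46 and 6.28 in siControl and 4.79, 5.00, 4.91, 5.26 and 5.13 in P150KD (2.59-fold lower, log2 fold change -1.37, SE 0.17, limma adjusted p = 0.00455), and it kept its call whichever array was left out. The non-oxidative branch exchanges sugar phosphates with glycolysis through transketolase and transaldolase. Neither gene passed: Tkt differed by 0.19 (SE 0.25, adjusted p = 0.629) and Taldo1 by -0.37 (SE 0.15, adjusted p = 0.139), though every P150KD array of Taldo1 lay below the controls.

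None of the 8 tested pyruvate entry genes passed in limma. An unadjusted limma p under 0.05 was found for 4 of the 8, beside 5198 of all 14601 tested genes. The carrier that brings pyruvate into mitochondria is a pair of proteins. By the brightest probes Mpc1 differed by -0.26 (SE 0.21, adjusted p = 0.443) and Mpc2 by 0.42 (SE 0.17, adjusted p = 0.135). A second Mpc1 probe stood at 0.02 (SE 0.19, limma adjusted p = 0.944), so no direction is given for Mpc1. All Mpc2 arrays of P150KD, from 6.18 to 6.55, lay above the siControl arrays, from 5.87 to 6.15. Pdha1, the X-linked E1 alpha subunit of pyruvate dehydrogenase, read 6.05, 6.57 and 6.24 in siControl and 5.94, 5.99, 6.29, 5.68 and 5.96 in P150KD (log2 fold change -0.32, SE 0.20, limma adjusted p = 0.334), with overlap. Pdhb, the E1 beta subunit, differed by -0.41 (SE 0.17, adjusted p = 0.159). Dlat, the E2 subunit that transfers the acetyl group, had the largest difference of the complex at -1.26 (SE 0.40, adjusted p = 0.0784), and Dld, the E3 subunit shared with other dehydrogenases, one of -0.48 (SE 0.21, adjusted p = 0.183). The pyruvate dehydrogenase kinases switch the complex off. Pdk1 read -2.33, -2.11 and -7.06 in siControl and -1.48, -1.95, -0.80, -0.41 and -0.19 in P150KD (log2 fold change 2.87, SE 1.13, limma adjusted p = 0.136). siControl replicate 3 was not well above background for Pdk1 and lay far below the other 2 controls, and all 5 knockdown arrays lay above the highest control. The size of the Pdk1 difference rests on that array: it was 1.25 (adjusted p = 0.191) without it, 1.61 (adjusted p = 0.0654) with normexp background correction and 1.88 with array weights. Pdk3 differed by 0.37 (SE 0.80, adjusted p = 0.786), and Pdk2 was well above background on 2 arrays and was not tested.

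Of the 14 genes listed under the citric acid cycle 6 fell, by most Idh3a, and 1 rose, Idh1, whose enzyme is cytosolic and so lies outside the mitochondrial cycle. On the quantile and array median scales 2 of the 14 fell, and on the housekeeping scale 1. The NAD-dependent isocitrate dehydrogenase, which carries the oxidative step of the cycle after citrate, is built of 3 kinds of subunit. Idh3a, its catalytic subunit, read 6.20, 6.50 and 6.33 in siControl and 4.50, 5.57, 4.91, 4.62 and 4.63 in P150KD (2.83-fold lower, log2 fold change -1.50, SE 0.27, limma adjusted p = 0.0143). P150KD replicate 2 stood above the other 4 and still below the controls, and without siControl replicate 2 the adjusted p was 0.0529. Idh3g, a regulatory subunit, read 6.15, 6.17 and 6.10 in siControl and 5.50, 5.54, 5.44, 5.52 and 5.33 in P150KD (1.59-fold lower, log2 fold change -0.67, SE 0.14, limma adjusted p = 0.0238). Its arrays were tightly grouped, but the call was lost without any 1 siControl array or P150KD replicate 1 or 3 (adjusted p up to 0.0884). Idh3b, the other regulatory subunit, differed by -0.18 (SE 0.17, adjusted p = 0.527). The NADP-dependent isocitrate dehydrogenases lay on the other side of 0. Idh1, the cytosolic enzyme, read 1.67, 2.23 and 2.13 in siControl and 2.97, 3.30, 2.92, 2.84 and 2.996 in P150KD, 2-fold higher (log2 fold change 1.00, SE 0.20, limma adjusted p = 0.0188), with no overlap. Without siControl replicate 1 its adjusted p was 0.0727. Idh2, the mitochondrial enzyme, differed by 0.35 (SE 0.15, adjusted p = 0.155), with all P150KD arrays above the controls.

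Among the later steps, Ogdh, the E1 subunit of 2-oxoglutarate dehydrogenase, read 5.61, 5.53 and 6.15 in siControl and 4.82, 4.84, 4.63, 5.09 and 4.95 in P150KD (1.86-fold lower, log2 fold change -0.90, SE 0.21, limma adjusted p = 0.0305), all below the controls. Its partner Dlst, the E2 subunit, differed by -0.53 (SE 0.23, adjusted p = 0.167). Suclg1, the shared alpha subunit of succinyl-CoA ligase, read 5.49, 5.85 and 5.69 in siControl and 4.82, 4.89, 4.88, 5.18 and 5.19 in P150KD (1.61-fold lower, log2 fold change -0.69, SE 0.18, limma adjusted p = 0.0443). Both beta subunits, Sucla2 and Suclg2, did not pass, with differences of -0.34 (SE 0.19, adjusted p = 0.267) and -0.28 (SE 0.24, adjusted p = 0.459). Fh1, fumarate hydratase, read 5.53, 5.48 and 5.34 in siControl and 3.75, 4.27, 4.42, 4.35 and 4.42 in P150KD (2.31-fold lower, log2 fold change -1.21, SE 0.21, limma adjusted p = 0.0117). P150KD replicate 1 was its lowest array, and the call was lost without siControl replicate 1 (adjusted p = 0.0522). Mdh2, the mitochondrial malate dehydrogenase, read 7.97, 7.84 and 8.07 in siControl and 7.33, 7.31, 7.20, 7.37 and 7.33 in P150KD (1.57-fold lower, log2 fold change -0.65, SE 0.15, limma adjusted p = 0.0279), with the knockdown arrays within 0.17 of each other. Mdh1, the cytosolic enzyme, differed by -0.67 (SE 0.32, adjusted p = 0.21). Citrate synthase, encoded by Cs, read 7.16, 7.23 and 7.34 in siControl and 6.94, 7.06, 6.78, 6.78 and 6.79 in P150KD and did not pass (log2 fold change -0.37, SE 0.16, limma adjusted p = 0.154), although the groups did not overlap. The calls of 3 of these genes were weak: Suclg1 lost its call whichever array was left out, Mdh2 without 6 of the 8 arrays and Ogdh without 7 (adjusted p up to 0.138, 0.0974 and 0.0815). With slide column blocked Fh1 kept its call, and the other 6 called genes of the cycle had adjusted p from 0.0892 to 0.259.

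**Figure D3:**
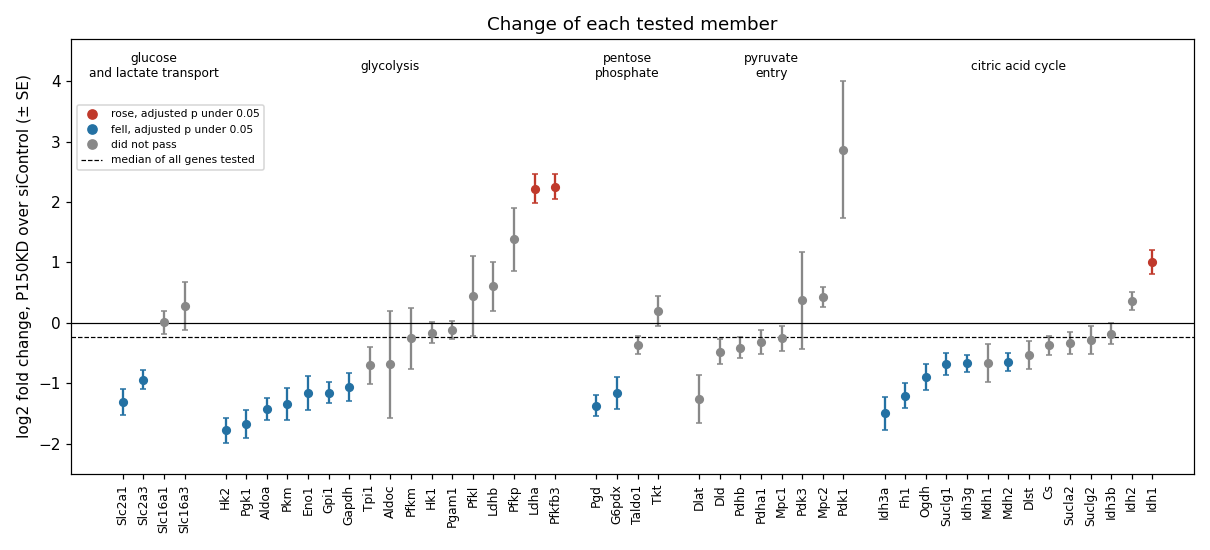
Log2 fold change of P150KD (n = 5) over siControl (n = 3) for each of the 47 tested members with its SE from limma, grouped by role and ordered by size within a role; blue fell, red rose, grey did not pass an adjusted p of 0.05, and the dashed line is the median of all tested genes at -0.24. The 17 blue members lie between -1.78 and -0.65, and the 3 red ones are Ldha, Pfkfb3 and Idh1.

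Whether paired isozyme or partner genes changed by different amounts was tested on the per-array difference of their log2 signals, with an exact two-sided permutation test over the 8 arrays, for 13 pairs with both genes tested. The smallest p this design allows is 0.0357, and adjusted over 13 pairs no pair passed, the smallest adjusted exact p being 0.0929. In 5 pairs the groups did not overlap, each with an exact p of 0.0357. The change of Hk1 exceeded that of Hk2 by 1.61 (SE 0.22) on the log2 scale, and that of Ldha exceeded Ldhb by 1.61 (SE 0.39). Idh1 exceeded Idh2 by 0.65 (SE 0.19), and Pdk1 exceeded Pdk3 by 2.49 (SE 1.21) with 1 control array of Pdk1 not above background (1.38 without that array, 1.26 with normexp). For Pdk1 minus Pdk3 the groups nearly touched, at -2.305 for the highest control and -2.294 for the lowest P150KD array. By the brightest probe of Mpc1, Mpc1 minus Mpc2 gave -0.68 (SE 0.17). For the glucose transporters, Slc2a1 minus Slc2a3 gave -0.37 (SE 0.22, exact p = 0.25), and for Mdh1 minus Mdh2 the value was -0.01 (SE 0.30, exact p = 0.964). The other 6 pairs had exact p from 0.429 to 0.929.

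Some members had several probes, which did not always go together. All 3 probes of Gpi1 fell, with log2 fold changes of -1.16, -1.13 and -1.11. Of 7 Gapdh probes, 4 fell, with log2 fold changes of -1.07, -1.07, -1.06 and -0.99, and 3 did not pass, with values of -0.68, -0.58 and 0.12. Gapdh has many processed pseudogenes and so have several other glycolysis genes, so a probe can share signal with near-identical copies. For Ldha, 2 of 3 probes rose, the second by 2.77, and another, well above background on 5 arrays, differed by 0.50 (SE 0.34, adjusted p = 0.356). Of the Ogdh probes, a second fell with a log2 fold change of -1.08 (SE 0.19, adjusted p = 0.0129) and the remaining one stood at -0.06 (SE 0.20, adjusted p = 0.855). The 2 Pfkp probes opposed each other: the probe that stands for the gene differed by 1.39 (SE 0.52, adjusted p = 0.12), and the other fell with -1.13 (SE 0.28, adjusted p = 0.0383), so no direction is given for Pfkp. The second Tpi1 probe differed by -1.07 (SE 0.38, adjusted p = 0.101), and the second probes of Hk1, Slc16a3, Mpc1, Pdhb and Dld did not pass. That of Mpc1 stood at 0.02, beside -0.26 for its brightest probe. For Pfkfb3 only 1 of 2 probes was tested, as the other was well above background on 1 array.

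**Figure D4:**
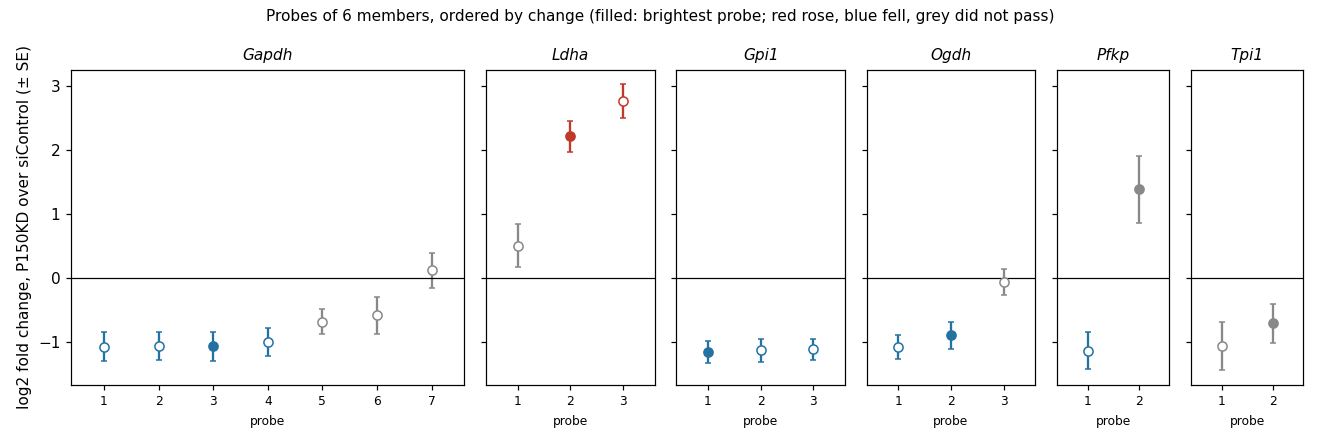
Log2 fold change with SE (limma, P150KD n = 5 over siControl n = 3) of every probe of 6 members with several tested probes, ordered by change within a gene; filled points are the brightest probe, which stands for the gene, blue fell, red rose and grey did not pass. The probes of Gpi1 lie together near -1.1, those of Pfkp lie on opposite sides of 0, and the probes of Gapdh, Ldha and Ogdh nearest to 0 stand at 0.12, 0.50 and -0.06.

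A further list of 103 genes of the same pathways and of regulators, none of them a member, was measured beside these. Of these 84 were tested, and 16 fell and 2 rose (19% and 2.38%, beside 10.5% and 6.65% of all tested genes). Their median was -0.26, beside -0.24 for all genes. Among other transport and glycolysis genes 5 of 21 fell (23.8%), among them Pfkfb4, a relative of Pfkfb3, with -2.29 (SE 0.38, adjusted p = 0.0104), Pgam5, a mitochondrial phosphatase named after the mutases, with -0.84 (SE 0.19, adjusted p = 0.0263), and the intracellular glucose transporter Slc2a8 with -0.89 (SE 0.20, adjusted p = 0.028). Pfkfb4 read 3.64, 3.46 and 3.73 in siControl and 0.82, 0.45, 1.86, 1.63 and 1.85 in P150KD, lower where Pfkfb3 was higher. Of other citric acid cycle genes and their feeders 7 of 22 fell (31.8%), including the succinate dehydrogenase subunits Sdhb with -1.33 (SE 0.15, adjusted p = 0.00349), Sdhc with -1.05 (SE 0.16, adjusted p = 0.00877) and Sdha with -1.05 (SE 0.17, adjusted p = 0.00937), which oxidise succinate between the steps of Suclg1 and Fh1. Of 8 other pyruvate entry genes 1 fell (12.5%, near the background), Pdhx, the E3-binding protein of pyruvate dehydrogenase, with -1.29 (SE 0.19, adjusted p = 0.00713). In the rest of the pentose phosphate list 1 of 8 rose, Prps2, which makes phosphoribosyl pyrophosphate, with 3.14 (SE 0.78, adjusted p = 0.0371). For Prps2 siControl replicate 3 was not well above background; without it the difference was 2.25 (adjusted p = 0.0856), and the call was lost on leaving out any array other than siControl replicate 2. Of 5 tested sperm and testis isozymes 0 passed in limma, with 1 at an unadjusted p under 0.05, Gapdhs at 2.35 (SE 0.65, adjusted p = 0.0527).

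The 20 tested regulators are part of the 84 genes above. Of them 3 fell and 1 rose, which at 15% and 5% is near the shares of all tested genes, 10.5% and 6.65%. Hif1a, the oxygen-regulated subunit of hypoxia-inducible factor 1, read 0.12, 0.11 and -0.47 in siControl and -1.76, -0.66, -1.92, -1.69 and -1.51 in P150KD, a difference of -1.42 (SE 0.32, adjusted p = 0.0282). Its values in P150KD lay below all controls. Max, the partner of Myc proteins, fell with -0.87 (SE 0.18, adjusted p = 0.0195), and Epas1, which encodes HIF-2 alpha, with -0.67 (SE 0.17, adjusted p = 0.0395); Epas1 is the remaining fall of the list and lies outside the naming rule. Mlxipl, the glucose-sensing factor ChREBP, rose with 1.64 (SE 0.38, adjusted p = 0.0296). Regulation of these proteins after translation was not measured.

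Markers of cells that could accompany embryos were read on the same arrays. Of 7 tested leukocyte markers 4 rose, Cd74, Coro1a, Srgn and Cd86 (57.1%, beside 6.65% of all tested genes). Fcer1g, Itgam and Cd3e did not pass, with differences of -0.29, -0.35 and 0.01. Ptprc, Laptm5, Tyrobp and Lyz2 were not well above background on any array. The log2 of the summed signal of the 7 tested ran from 2.38 to 4.07 in siControl and 3.63 to 3.98 in P150KD. That sum takes in Itgam, which read 1.80, 2.12 and 3.94 in siControl and 1.97 to 2.54 in P150KD. Of 4 tested cumulus and granulosa markers 0 passed in limma (unadjusted p under 0.05 in 1), with a summed signal of 2.75 to 2.95 in siControl and 2.998 to 3.98 in P150KD, and Has2, Ptx3, Tnfaip6, Ptgs2, Fshr and Inhba were not well above background on any array. Of 5 tested sperm markers 0 passed in limma (unadjusted p under 0.05 in 1), with a summed signal of 3.01 to 3.43 in siControl and 2.30 to 3.35 in P150KD and Akap4 not well above background on any array. The part of the leukocyte markers in the values of the members was not tested.

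The number of members that fell depended on how arrays were scaled and on the slide column. With quantile normalization 12 members fell and 5 rose, where 6.48% of all genes fell and 7.7% rose. Scaled to the array median 11 fell and 2 rose (all genes 6.93% and 5.26%), and scaled to 10 housekeeping genes 5 fell and 5 rose (all genes 3.38% and 9.9%). Eno1, Idh3g, Ogdh, Suclg1 and Mdh2 lost their call with quantile normalization, and Gapdh, G6pdx, Idh1, Idh3g, Ogdh, Suclg1 and Mdh2 on the array median. The 5 that fell on the housekeeping scale were Hk2, Aldoa, Pgk1, Pgd and Idh3a, and Mpc2 and Idh2 joined Pfkfb3, Ldha and Idh1 among the rises. The housekeeping genes themselves all had log2 fold changes below 0, with Actb lowest at -1.20. The members' median was -0.24, -0.47 and -0.02 on these 3 scales, beside -0.12, -0.30 and 0.15 for all tested genes. Scaling to the array median or to housekeeping genes shifts every gene equally. Of these 3 scales only quantile normalization could have changed the order of the medians, and it did not. Blocking on slide column, where P150KD replicate 1 alone is set against the controls, 3 members fell (G6pdx, Pgd and Fh1; all genes 1.39%) and 2 rose (Pfkfb3 and Ldha; all genes 1.42%). Of the further settings, the members that fell and rose numbered 17 and 3 after normexp background correction (all genes 12.2% and 7.06%), 17 and 3 in the series table (10.5% and 6.63%), and 17 and 4 with array weights (15.1% and 8.73%). They numbered 19 and 5 with trended, robust variances (14.8% and 8.19%), 18 and 3 of 46 where only probes above background on all 8 arrays were kept (18.3% and 8.25%), and 14 and 3 of 48 without a filter (5.13% and 3.53%). Leaving out siControl replicate 1, 2 or 3, 8, 8 and 9 members fell, where 3.19%, 4.4% and 4.55% of all genes did. Leaving out P150KD replicate 1, 2, 3, 4 or 5, 12, 14, 11, 14 and 14 members fell, where 6.82%, 9.01%, 7.34%, 6.78% and 8.04% of all genes did, so the count over all genes dropped along with that of the members. Slc2a1, Slc2a3, Hk2, Gpi1, Aldoa, Pgk1 and Pgd fell, and Pfkfb3 and Ldha rose, whichever array was left out.

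**Figure D5:**
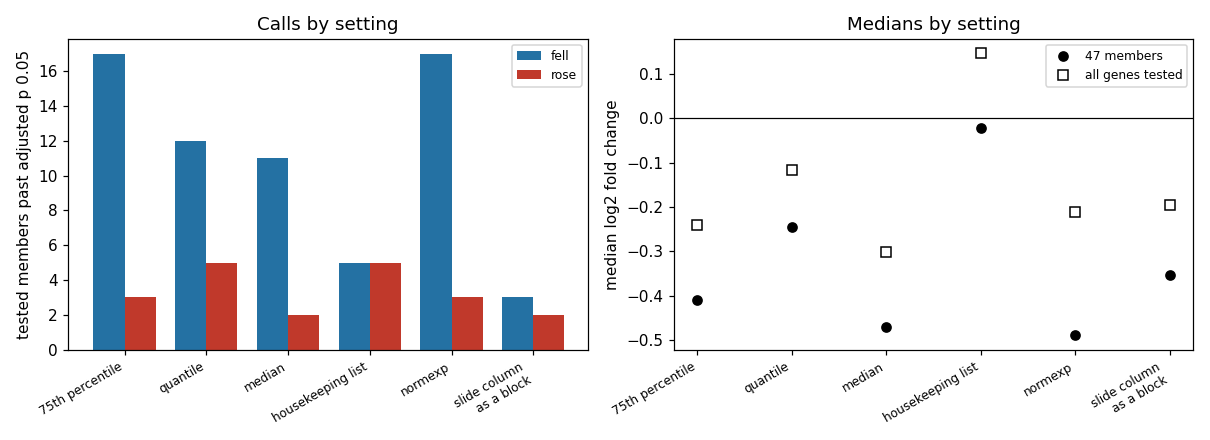
Left, the number of tested members that fell (blue) or rose (red) at a limma adjusted p under 0.05 under 6 settings; right, the median log2 fold change of the 47 members (filled circles) and of all tested genes (open squares) under the same settings. Falls number 17, 12, 11, 5, 17 and 3 from left to right, and the filled circle lies below the open square in every setting. In the array median and housekeeping settings both medians shift equally, so their order there was fixed by the first setting.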

How the data were processed

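Total RNA of 10 morulae per sample was labelled with Cy3 after amplification and hybridised to single-colour Agilent arrays, per the labels' protocols. Per the submitters' processing notes the scans were read with Agilent Feature Extraction 10.5.1, and per the file headers each processed signal is an intensity from which background and spatial trend were removed, with no scaling across arrays. Spot and background medians, used for normexp, are raw intensities per the file headers, and the other columns are quality flags of 0 or 1, per the file headers. The series table holds log2 values deposited by the authors with scale and centring unstated; set against the scanner files they are log2 signals scaled to the 75th percentile with the median of each probe subtracted. Its column medians ran from -0.21 to 0.09.

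Control spots were left out and spots of a probe averaged, leaving out outlier spots if a good one was there. After log2 each array's 75th percentile (819 to 1304 before the log) was subtracted, and the 30348 of 55681 probes well above background on at least 3 of 8 arrays were tested; the number of arrays limits precision. Of all probes 27235 received 1 of 20660 symbols. The brightest tested probe stood for its gene. P150KD was compared with siControl with limma 3.58.1 in R 4.3.3 (lmFit, eBayes, two-sided, Benjamini-Hochberg over all 30348 probes, threshold 0.05); the fit was tested on simulated data. Isozyme pairs used the exact permutation test of scipy 1.17.1. The array design names an older genome build than the gene table, so gene coordinates are given only for the RefSeq promoter windows.

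The members and lists were chosen with earlier results of these data known. The naming rule took every member past the threshold, the largest rise and fall of each role, a set of step-defining members, and up to 3 other genes per list; remaining members are given by their difference alone, and marker genes were named after their values were seen. Replicate numbers were not used as pairs. Alternatives were normexp, 3 other scalings, the series table, other filters, replicate and slide column blocks, other variance models, the mean over a gene's probes, and omission of each array in turn.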

Additional observations from a re-analysis of the deposited data

Results flagged for a closer look

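For 31 named genes, each over the 5 P150KD arrays, 2 values stood far from the other 4; chance sets apart about 1 in 20 groups. Ldhb read 0.97 on P150KD replicate 3, beside 2.15 to 2.53 on the other 4. Fh1 read 3.75 on P150KD replicate 1, beside 4.27 to 4.42 on the other 4.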

How the results depend on the processing

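Calls and directions held under normexp correction and in the series table, where the same 20 members passed, and no member past the threshold changed its direction under any alternative run. With quantile normalization 5 members rose, 1 of them in pyruvate entry and 2 in the citric acid cycle, where 2 fell; medians were -0.24 for all members, -0.60 for pentose phosphate, -0.035 for pyruvate entry and -0.34 for the cycle, and Hk1 turned to 0.10. Scaled to the median 11 members fell, 1 in pentose phosphate and 2 in the cycle, where 0 rose in limma and the median was -0.65. Scaled to the housekeeping list 5 members rose, 1 in pyruvate entry and 2 in the cycle, and 5 fell, 0 in transport, 3 in glycolysis, 1 in pentose phosphate and 1 in the cycle. Medians there were -0.022 for all, -0.078 for transport, -0.30 for glycolysis, -0.38 for pentose phosphate, 0.10 for pyruvate entry and -0.20 for the cycle, and Hk1, Pdha1 and Cs turned to 0.23, 0.071 and 0.015. With probes above background on all 8 arrays 1 pyruvate entry gene fell, Dlat. With trended, robust variances 5 members rose, 1 in pyruvate entry and 2 in the cycle. With array weights the cycle's median was -0.52 and Slc16a3 turned to -0.040. Blocking on slide column, 3 members fell, 0 in transport, 0 in glycolysis and 1 in the cycle, where 0 rose in limma. In that fit 21 members had an unadjusted limma p under 0.05, and the share of all genes there is not given. The transport and pentose phosphate medians were then -0.61 and -0.95, and Slc16a3 turned to -0.30. Among pairs, Mdh1 minus Mdh2 turned to 0.0047 with quantile normalization and 0.10 with normexp, and Pdha1 minus Pdhb to -0.052 with normexp. Pdk1 minus Pdk3 was 1.26 with normexp and 1.38 without siControl replicate 3, and Pdk1 alone 1.61 and 1.25. The cause of these shifts was not tested.

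Leaving out 1 array at a time, 8 to 14 members fell, 4 to 7 in glycolysis, 1 to 2 in pentose phosphate and 1 to 4 in the cycle, where 0 to 1 rose. Medians ran from -0.72 to -0.33 for glycolysis and -0.65 to -0.48 for the cycle. Values that crossed 0 ran from -0.079 to 0.65 for Slc16a3 and -0.31 to 0.89 for Pfkl. Between pairs they ran from -0.11 to 0.21 for Suclg2 minus Sucla2, -0.19 to 0.17 for Mdh1 minus Mdh2, -0.65 to 0.21 for Slc16a1 minus Slc16a3, -0.38 to 1.28 for Pfkl minus Pfkm and -0.027 to 0.29 for Pdha1 minus Pdhb.

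Same-numbered arrays did not deviate together (r of -0.01, -0.07 and -0.02 for numbers 1 to 3), so the replicate numbers give no pairing. A fit with the replicate number as a block, over 3 arrays a group, called 0 members up or down in limma, in transport, glycolysis, pentose phosphate and the cycle alike, and 0 of all genes. In that fit 21 members had an unadjusted limma p under 0.05, and the share of all genes there is not given. In the main fit 28 members and 5198 of all 14601 tested genes had one. The cycle's median under this block was -0.49, and Slc16a3 and Tkt turned to -0.033 each. Signals near background limit Pdk1, read above it on 7 arrays, and Pdk2, on 2.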
